A study of Saccharomyces cerevisiae with 8 samples.

Results

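The genes described are those of the proteins of the large subunit of the cytosolic ribosome of budding yeast, Saccharomyces cerevisiae: every gene whose standard name is RPL followed by a digit, and the stalk genes RPP0, RPP1A, RPP1B, RPP2A and RPP2B. They were found by systematic identifier, and all 81 had a row among the 7126 rows of the deposited expression table. The cells were of strain BY4741 with an altered GCR1 gene. JHY9200, called S here, carried the deletion written as GCR1 (∆4-742) and made Gcr1(S). JHY9100, called U, carried GCR1 (∆1-574) and made Gcr1(U). The labels give no scheme for counting these positions. Both strains were grown untreated in YPD medium with 2% glucose and sampled at 12 h, after the diauxic shift, and at 6 h, in exponential phase. Every group held 2 libraries, which makes 8 for the 4 groups, and no strain with an unaltered GCR1 was analysed here. Nothing in the labels says that 2 libraries of 1 group are separate cultures, so p-values measure the spread between these samples, which may be technical.

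The large subunit carries out peptide bond formation, holds the tunnel through which the new protein leaves, and bears a flexible stalk that recruits translation factors. Making ribosomal proteins takes up a large part of the transcription of a yeast cell growing on glucose, and it is turned down when glucose runs out at the diauxic shift. The factor Rap1, with Fhl1 and Ifh1, drives most of these genes, and Sfp1 links them to nutrient signalling. Gcr1, known best as an activator of glycolytic genes together with Rap1 and Gcr2, has also been tied to ribosomal protein genes. Most large subunit proteins are encoded by an A gene and a B gene, left from an old duplication of the genome. In most pairs the proteins are the same or nearly so, but those of RPP1, RPP2, RPL16 and RPL22 differ at 44, 42, 20 and 19 residues. By their names the 81 genes held 35 A/B pairs and 11 single-copy genes. In the RefSeq annotation of the R64 assembly 53 of them had an intron and 28 had none.

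The values were FPKM, fragment numbers scaled to gene length and library size so that genes can be set side by side. For some genes the level is uncertain, for reasons given below. The sum of FPKM per library ran from 1504396 to 1548312, and the read depth is unknown, so no counting error can be given. A value of 0 says only that the gene was listed at 0. Differences are given as log2 fold changes on the log2(FPKM + 1) scale, which understates changes of low genes. They come from a limma fit to the 6339 rows that averaged 1 FPKM or more, and a gene is said to rise or fall where its Benjamini-Hochberg adjusted p over those rows was under 0.05. GCR1 itself had 104 and 89.0 FPKM in S at 12 h, 30.2 and 32.9 in U at 12 h, 143 and 58.9 in S at 6 h, and 60.9 and 40.2 in U at 6 h. The strains did not overlap at 12 h and overlapped at 6 h, and a value for the whole gene does not show which form was made. Over all 6339 rows, libraries of the same number resembled each other across strains. At 6 h all 22 heat shock genes of a list were higher in replicate 1 than in replicate 2, with median log2 differences of 2.33 in S and 2.27 in U. The large subunit genes did not share a direction at 6 h. Their median of replicate 1 minus replicate 2 was -0.22 in S, with 74 of 78 tested genes below 0. In U it was 0.07, with 57 of 78 above 0.

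Several large subunit genes were listed at 0 or at very low values. RPL41A and RPL41B, whose protein is the smallest of the ribosome, were listed at 0 in all 8 libraries. Their coding sequences in the RefSeq R64 genome, at chrIV:130407-130484 and chrIV:221724-221801 on the minus strand, are each 78 bases long and differ at 1 base, in capitals below. They are shown because no pair of the set is shorter and because the handling of reads that match both copies is not stated in the sources used here.
RPL41A: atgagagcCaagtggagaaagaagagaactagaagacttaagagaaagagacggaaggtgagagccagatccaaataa
RPL41B: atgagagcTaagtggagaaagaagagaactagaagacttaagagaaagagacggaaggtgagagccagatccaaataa

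RPL43A had 0.67 and 2.39 FPKM in S at 6 h and 1.05 and 1.06 in U at 6 h, and was listed at 0 in all 4 libraries of 12 h. These 3 genes did not reach the mean of 1 FPKM, which left 78 of the 81 genes for testing. The FPKM of RPL43A stood beside a row of the other strand, YPR044C, which the table also names RPL43B and which had a mean of 389 FPKM over the 4 libraries of 12 h and 4117 FPKM over the 4 of 6 h. YPR044C is not among the genes of the R64 annotation.

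10 large subunit genes had such a row: the adjacent systematic number on the other strand, with no gene in the annotation and a mean of at least 20% of the gene's own. They were RPL10, RPL12A, RPL12B, RPL22A, RPL33A, RPL36B, RPL39, RPL43A, RPL7B and RPL8B, by a rule set after the values were seen. By mean FPKM over 8 libraries the other row was the higher one in all of them but RPL12B. The widest gaps besides RPL43A were at RPL36B, RPL22A, RPL33A and RPL39. RPL22A had 0.63 FPKM and a listed 0 in S at 12 h, a listed 0 and 0.45 in U at 12 h, 14.4 and 15.7 in S at 6 h, and 16.4 and 9.47 in U at 6 h. The row YLR062C had means of 162 FPKM at 12 h and 3349 FPKM at 6 h over 4 libraries each. All 10 other rows fell at 12 h against 6 h in both strains, with median log2 fold changes of -3.23 in S and -3.25 in U. How the authors' counting divided fragments between the 2 strands was not tested. Levels, and A/B differences, of these 10 genes are therefore uncertain. Another overlap is annotated within RPL7A and RPL7B, whose introns hold the small nucleolar RNA genes SNR39 and SNR59.

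**Figure D1:**
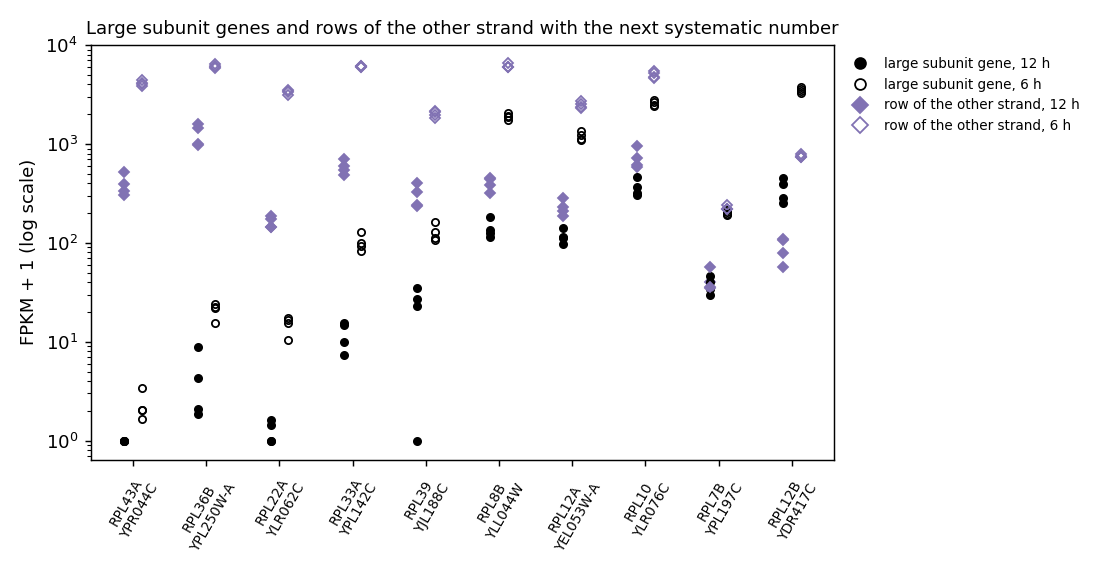
FPKM + 1, on a log axis, of 10 large subunit genes (circles) and of the row of the other strand with the adjacent systematic number (diamonds), with filled symbols for the 4 libraries of 12 h and open symbols for the 4 of 6 h. The other row lies above the gene at RPL43A, RPL36B, RPL22A, RPL33A, RPL39, RPL8B, RPL12A and RPL10, near it at RPL7B and below it at RPL12B.

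Large subunit genes took up a far smaller share of the expressed RNA at 12 h than at 6 h in both strains. Their 81 rows summed to 1.69% and 2.15% of all FPKM in S at 12 h and to 15.8% and 18.2% in S at 6 h. In U they summed to 1.64% and 2.56% at 12 h and to 16.6% and 16.3% at 6 h. All 4 libraries of 12 h were thus far below all 4 of 6 h, and the strains overlapped at 12 h. The median FPKM of the 81 genes was 287 and 363 in S at 12 h, 263 and 446 in U at 12 h, 2906 and 3498 in S at 6 h, and 3058 and 2852 in U at 6 h. Since FPKM is relative to the library, a lower share and fewer molecules per cell cannot be told apart.

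**Figure D2:**
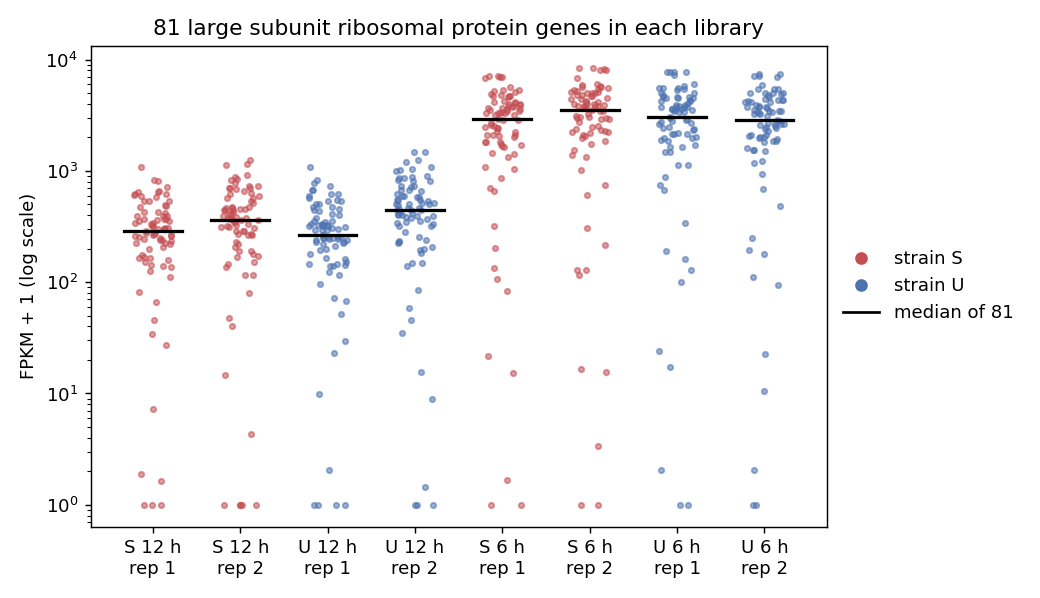
FPKM + 1, on a log axis, of the 81 large subunit genes in each of the 8 libraries (strain S red, strain U blue), with the median as a black line. The medians are 263 to 446 FPKM in the 4 libraries of 12 h and 2852 to 3498 FPKM in the 4 of 6 h, and the points at the floor are genes listed at 0.

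With time, 77 of the 78 tested genes fell in S and 76 fell in U, and 0 rose in either. Of all 6339 rows, 22.9% fell in S and 21.7% fell in U. The median log2 fold change of the 78 genes was -3.22 in S and -3.02 in U, which is 9.29-fold and 8.10-fold lower at 12 h. The median of all rows was 0.23 in S and 0.26 in U. The quartiles of the genes lay close together, at -3.52 and -2.81 in S and at -3.37 and -2.55 in U. Both libraries of 12 h were below both of 6 h for 77 genes in S, against 32.8% of all rows, and for 77 genes in U, against 31.9%. The 56 genes of the small subunit (RPS) all fell in both strains, with medians of -3.15 in S and -2.96 in U. Of 34 genes of the large subunit of the mitochondrial ribosome (MRPL), 30 rose in S, where 33.2% of all rows did, and 29 rose in U, where 33.5% did, with medians of 0.91 and 0.88. Leaving out U 12 h replicate 1 or U 12 h replicate 2 gave large subunit medians of -2.68 and -3.39 in U.

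**Figure D3:**
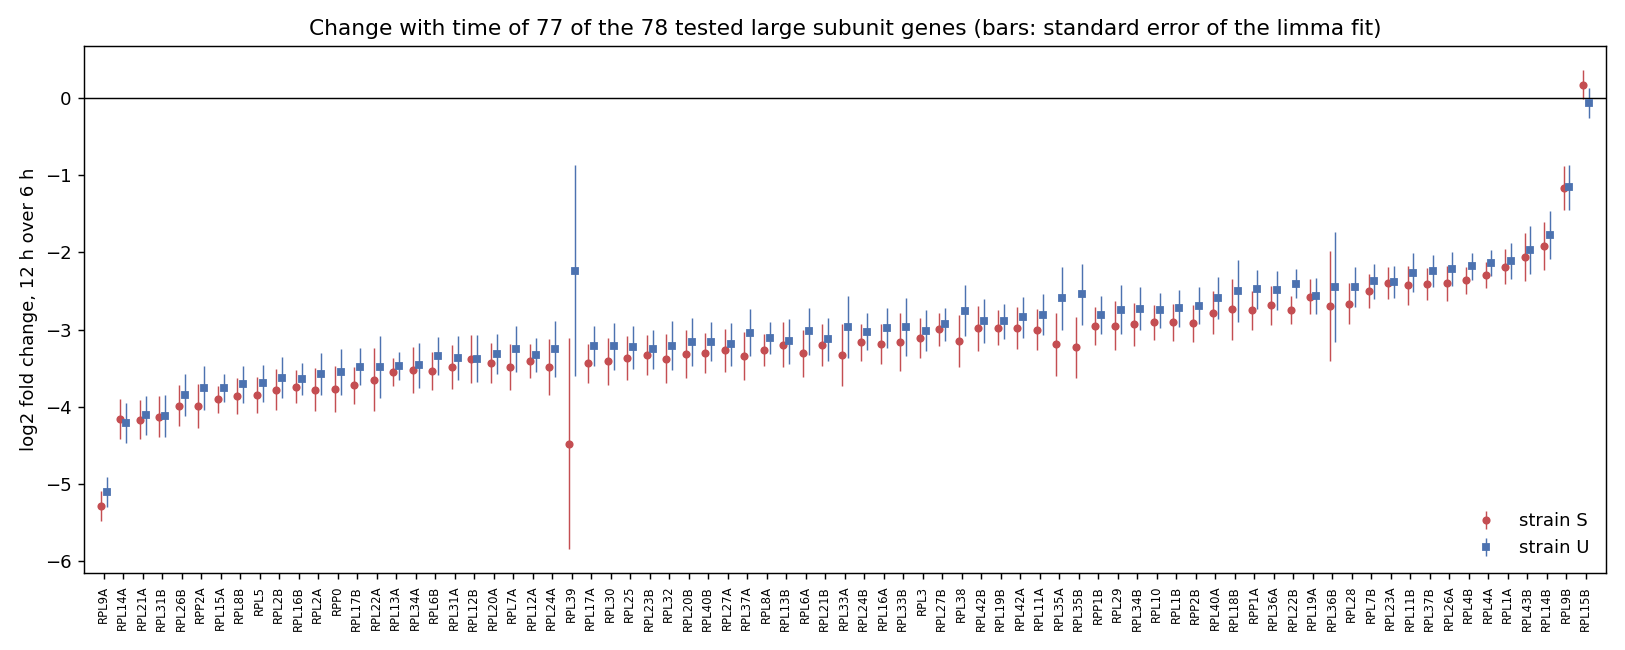
Log2 fold change, 12 h over 6 h, of 77 of the 78 tested large subunit genes in strain S (circles) and strain U (squares), ordered by the mean of both, with bars of 1 standard error of the limma fit. RPL9A lies lowest at -5.29 in S and -5.11 in U, RPL15B lies at 0.17 in S and -0.07 in U, and RPL39 has the widest bars.

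RPL9A, whose protein sits near the base of the stalk, fell most. It had 66.0 and 78.6 FPKM in S at 12 h, 71.0 and 83.6 in U at 12 h, 2530 and 3215 in S at 6 h, and 2764 and 2613 in U at 6 h. All 12 h libraries were close to each other and far under all 6 h libraries. The log2 fold change was -5.29 ± 0.19 in S (SE, adjusted p = 3.9e-05) and -5.11 ± 0.19 in U (adjusted p = 3.7e-05), which is 39.1-fold and 34.5-fold lower. RPL9A went with this to rank 72 of the 81 genes by mean FPKM at 12 h, against rank 46 at 6 h.

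Leaving aside RPL39, which is described below and had -4.48 in S, next came RPL21A, RPL14A and RPL31B in both strains, with log2 fold changes between -4.21 and -4.11. RPL21A had 235 and 264 FPKM in S at 12 h, 193 and 319 in U at 12 h, 4264 and 4737 in S at 6 h, and 4246 and 4365 in U at 6 h. RPL31B, which encodes a protein at the mouth of the exit tunnel, had 169 and 220 FPKM in S at 12 h, 144 and 238 in U at 12 h, 3336 and 3440 in S at 6 h, and 3382 and 3104 in U at 6 h. In both genes every 12 h library was far below every 6 h library. RPL26B (-3.99 in S, -3.85 in U), RPP2A (-3.99 and -3.76) and RPL15A (-3.91 and -3.76) followed.

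RPL15B was the exception to the fall. It had 137 and 144 FPKM in S at 12 h, 140 and 149 in U at 12 h, 134 and 116 in S at 6 h, and 128 and 178 in U at 6 h. The 12 h libraries lay above the 6 h libraries in S, as in 47.1% of all rows, and within their range in U. Its log2 fold change was 0.17 ± 0.19 in S (SE, adjusted p = 0.467) and -0.07 ± 0.19 in U (adjusted p = 0.787) in the limma fit, and neither passed. Median-of-ratios scaling gave -0.04 in S and -0.32 in U (adjusted p = 0.865 and 0.189). Its partner RPL15A, whose protein differs from it at 2 residues, had 339 and 330 FPKM in S at 12 h, 329 and 420 in U at 12 h, 4720 and 5367 in S at 6 h, and 5033 and 5056 in U at 6 h.

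RPL9B and RPL14B fell least among the genes that fell. RPL9B had 259 and 380 FPKM in S at 12 h, 251 and 409 in U at 12 h, 661 and 751 in S at 6 h, and 746 and 687 in U at 6 h. The times did not overlap, and the log2 fold change was -1.16 ± 0.29 in S (SE, adjusted p = 0.0151) and -1.16 ± 0.29 in U (adjusted p = 0.0156). The calls of RPL9B did not hold without S 12 h replicate 1 or S 6 h replicate 2 in S (-0.89 and -1.07, adjusted p = 0.0908 and 0.0656 in limma). They did not hold in U without U 12 h replicate 1, U 6 h replicate 1 or U 6 h replicate 2 (-0.81, -1.10 and -1.22, adjusted p = 0.0742, 0.0635 and 0.0563 in limma). RPL14B had 276 and 360 FPKM in S at 12 h, 254 and 448 in U at 12 h, 1031 and 1392 in S at 6 h, and 1140 and 1172 in U at 6 h, with log2 fold changes of -1.92 in S and -1.77 in U. RPL43B (-2.06 and -1.97), RPL1A (-2.18 and -2.11) and RPL4A (-2.30 and -2.13) came next. RPL43B had 481 and 630 FPKM in S at 12 h, 431 and 804 in U at 12 h, 2104 and 2508 in S at 6 h, and 2347 and 2276 in U at 6 h. RPL4A had 430 and 466 FPKM in S at 12 h, 442 and 538 in U at 12 h, 2081 and 2337 in S at 6 h, and 2167 and 2120 in U at 6 h. The times did not overlap in either gene. RPL1A encodes the protein of the L1 stalk, a separate arm of the subunit that helps the spent tRNA leave, and RPL4A one that lines the exit tunnel.

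The stalk recruits the factors that drive translation. RPP0 is its base, RPP1 and RPP2 proteins bind to RPP0 in pairs, and the RPL12 protein lies beside it. All 7 stalk genes fell in both strains, with medians of -3.38 in S and -3.33 in U. RPP0 had 240 and 322 FPKM in S at 12 h, 230 and 400 in U at 12 h, 3597 and 4032 in S at 6 h, and 3785 and 3352 in U at 6 h, with log2 fold changes of -3.77 in S and -3.55 in U. RPP2A had 309 and 383 FPKM in S at 12 h, 296 and 517 in U at 12 h, 5255 and 5702 in S at 6 h, and 5613 and 5000 in U at 6 h. RPP2B fell less than RPP2A, as tested below, with 658 and 730 FPKM in S at 12 h, 667 and 996 in U at 12 h, 4715 and 5853 in S at 6 h, and 5569 and 5002 in U at 6 h. All 4 libraries of 12 h were below all 4 of 6 h in these genes. RPP1A had 541 and 699 FPKM in S at 12 h, 573 and 862 in U at 12 h, 3904 and 4390 in S at 6 h, and 4233 and 3642 in U at 6 h. RPP1B had 492 and 575 FPKM in S at 12 h, 474 and 728 in U at 12 h, 3850 and 4459 in S at 6 h, and 4491 and 3778 in U at 6 h. These genes were close to each other in every library. RPL12A had 111 and 114 FPKM in S at 12 h, 96.0 and 139 in U at 12 h, 1087 and 1339 in S at 6 h, and 1119 and 1236 in U at 6 h. RPL12B had 287 and 394 FPKM in S at 12 h, 251 and 454 in U at 12 h, 3290 and 3754 in S at 6 h, and 3588 and 3441 in U at 6 h. RPL12A was the lower gene in every library. RPP1A, RPP1B, RPL12A and RPL12B had log2 fold changes between -3.41 and -2.75 in S and between -3.38 and -2.48 in U.

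The 11 single-copy genes had medians of -3.37 in S and -3.01 in U, and 11 fell in S and 10 in U. RPL3 encodes a protein that reaches to the site of peptide bond formation. It had 422 and 509 FPKM in S at 12 h, 400 and 586 in U at 12 h, 3462 and 4672 in S at 6 h, and 3577 and 4285 in U at 6 h, with log2 fold changes of -3.11 in S and -3.01 in U. RPL5, whose protein carries the smallest rRNA into the subunit, had 301 and 363 FPKM in S at 12 h, 292 and 446 in U at 12 h, 4579 and 5001 in S at 6 h, and 4629 and 4777 in U at 6 h. Its log2 fold changes were -3.85 in S and -3.70 in U. RPL25, the docking site of factors at the tunnel exit, had 645 and 828 FPKM in S at 12 h, 620 and 1038 in U at 12 h, 6989 and 8181 in S at 6 h, and 7709 and 7389 in U at 6 h. RPL28, the site of cycloheximide resistance mutations, had 617 and 844 FPKM in S at 12 h, 667 and 1008 in U at 12 h, 4198 and 5012 in S at 6 h, and 4598 and 4356 in U at 6 h. The log2 fold changes of RPL25 were -3.37 in S and -3.23 in U, and those of RPL28 were -2.67 in S and -2.45 in U. In all of these the 4 libraries of 12 h were under the 4 of 6 h.

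RPL30, which binds its own pre-mRNA and blocks its splicing, had 371 and 472 FPKM in S at 12 h, 350 and 618 in U at 12 h, 3965 and 5036 in S at 6 h, and 4577 and 4127 in U at 6 h. RPL32 had 623 and 882 FPKM in S at 12 h, 617 and 1087 in U at 12 h, 7029 and 8448 in S at 6 h, and 7695 and 7460 in U at 6 h. RPL38 had 396 and 665 FPKM in S at 12 h, 503 and 825 in U at 12 h, 4061 and 5098 in S at 6 h, and 4504 and 4203 in U at 6 h. In these genes replicate 2 was higher than replicate 1 in both groups of 12 h, as in 73 of the 78 tested genes in S and 78 in U. RPL29, whose protein is not needed for growth, had 832 and 1161 FPKM in S at 12 h, 834 and 1473 in U at 12 h, 6861 and 8436 in S at 6 h, and 7774 and 7102 in U at 6 h. RPL10, a late-joining protein of the subunit and one of the genes with a high row on the other strand, had 320 and 369 FPKM in S at 12 h, 306 and 466 in U at 12 h, 2431 and 2753 in S at 6 h, and 2641 and 2462 in U at 6 h.

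RPL39, a small protein of the exit tunnel, had the least certain value. It had 26.3 FPKM and a listed 0 in S at 12 h, 22.1 and 34.1 in U at 12 h, 105 and 127 in S at 6 h, and 160 and 111 in U at 6 h. Its log2 fold change was -4.48 ± 1.37 in S (SE, adjusted p = 0.0315 in limma), which turned to -2.10 without S 12 h replicate 2, the library listed at 0 (adjusted p = 0.0127). In S the call did not hold without S 6 h replicate 1, S 6 h replicate 2, U 12 h replicate 1 or U 12 h replicate 2 (adjusted p = 0.0759, 0.106, 0.0589 and 0.0587 in limma). In U the change was -2.24 ± 1.37 (adjusted p = 0.206), and without S 12 h replicate 1 or S 12 h replicate 2 the same value passed (adjusted p = 0.00425 and 0.00426 in limma), because the fit shares 1 spread over the groups. Its neighbouring row YJL188C, which the table names BUD19, had 302 FPKM at 12 h and 2016 FPKM at 6 h as means of 4 libraries.

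Levels ran over a wide range within each time. Leaving out the 10 genes with a high row on the other strand and the RPL41 pair, the other 69 genes lay between 44.5 and 1473 FPKM at 12 h and between 116 and 8448 FPKM at 6 h. The highest mean at 12 h was that of RPL37B with 1225 ± 181 FPKM (SD, n = 4), followed by RPL29 with 1075 ± 307, RPL42B with 995 ± 244 and RPL40A with 893 ± 229. At 6 h RPL32 had 7658 ± 594, RPL25 7567 ± 504, RPL29 7543 ± 709 and RPL42B 7477 ± 463 FPKM (SD, n = 4). Each of these 4 neighbours in the order of 6 h differed from the next by less than the SD, and so did the 4 of 12 h. The SD also holds shifts between libraries that the genes share. Within libraries, RPL29 was above RPL42B and RPL42B above RPL40A in all 4 of 12 h, while RPL37B was not above RPL29 in all of them. At 6 h no neighbours in the order kept it in every library. RPL40A encodes a ribosomal protein made as a fusion with ubiquitin. Genes with an intron and genes without one had similar falls, with medians of -3.28 and -3.13 in S and of -3.03 and -2.91 in U.

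The A and B genes of a pair often changed to a different degree. The difference log2(FPKM of A + 1) minus log2(FPKM of B + 1) was fitted with limma over all 59 pairs of the table with such names, of which 33 were large subunit pairs. The difference changed with time in 18 of the 33 pairs in S, where 59.3% of all pairs did, and in 21 in U, where 66.1% of all pairs did. The shares in the large subunit were 54.5% in S and 63.6% in U. These 33 pairs make up most of the 59, so shares near those of all pairs say little about the large subunit. 18 pairs passed in both strains, each in the same direction: in 8 the A gene gained on the B gene at 12 h, and in 10 it lost. RPL22, RPL6 and RPP1 passed in U and not in S, and the difference between the strains passed in 0 of 33 pairs. With the replicate number as a block within each time, RPL6 and RPP1 passed in S too (adjusted p = 0.0266 and 0.00631 in limma). RPL22 did not pass in U with a replicate block, whole or within each time (adjusted p = 0.0896 and 0.197 in limma). Nor did it with a pseudocount of 0.1 (adjusted p = 0.0816 in limma). In U the call of RPL6 was lost without any 1 of the 4 U libraries (0.26 to 0.39), that of RPP1 without U 6 h replicate 1 (0.31), and that of RPL22 without any 1 of the 4 U libraries (-1.26 to -0.90) or either S 6 h library. Without S 12 h replicate 1, RPL22 and RPP1 passed in S too (-1.29 and 0.28). Of the 18 pairs, RPL19 was lost in U without U 6 h replicate 2 (0.28). 16 of the 18 pairs were free of a high row on the other strand.

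**Figure D4:**
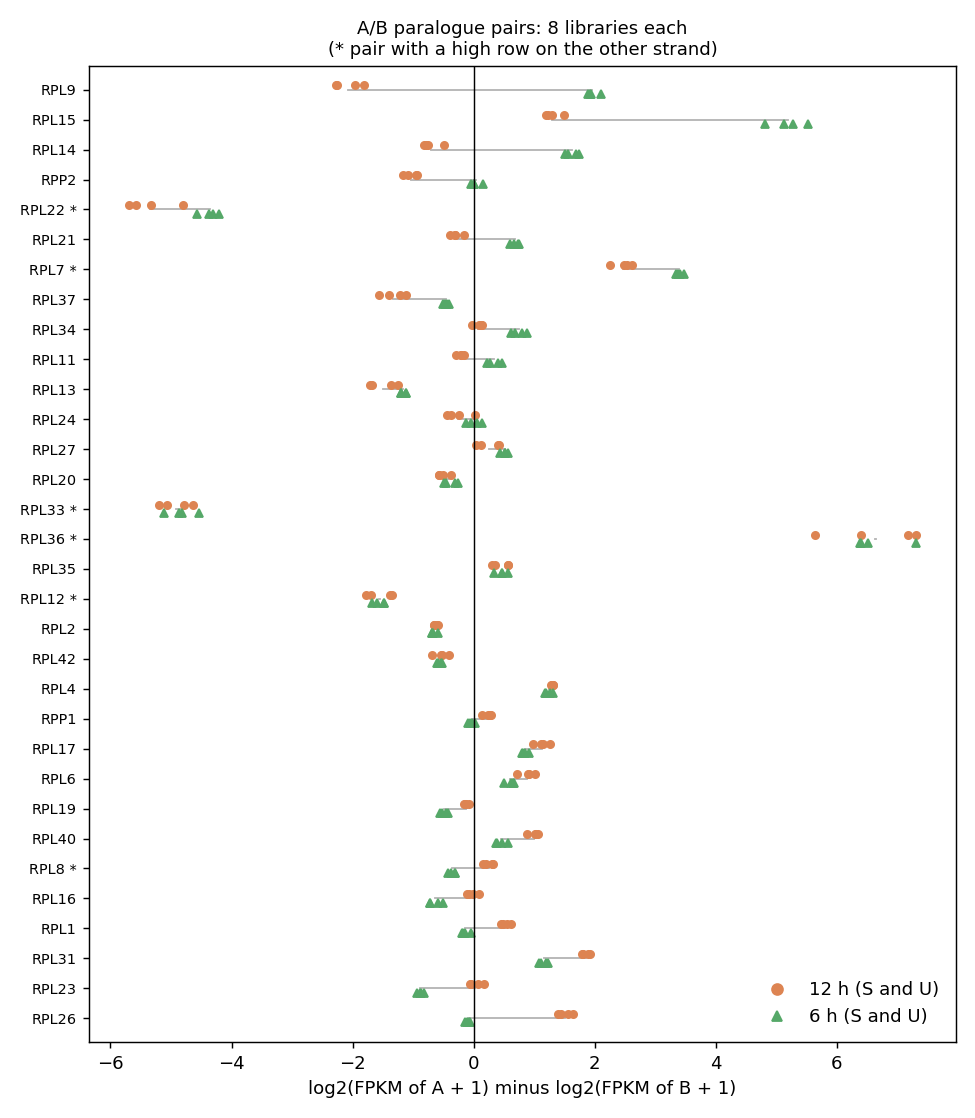
Difference of log2(FPKM + 1) between the A and the B gene of 32 of the 33 tested large subunit pairs in each library (circles 12 h, triangles 6 h), ordered by the change with time, with a grey line between the means and an asterisk for pairs with a high row on the other strand. RPL9 and RPL15 moved most, by -4.04 and -3.89, and RPL26 moved most in the other direction, by 1.61.

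RPL9, RPL15 and RPL14 moved most on the log2(FPKM + 1) scale, all towards the B gene at 12 h. With a pseudocount of 0.1, RPL22, whose A gene was near 0 at 12 h, changed by -3.32 in U (adjusted p = 0.0816 in limma). RPL9A was 4.22-fold lower than RPL9B at 12 h and 3.89-fold higher at 6 h, as the mean of 4 libraries on the log scale. The order of the genes was thus the opposite at the 2 times. The change of the A minus B difference was -4.12 ± 0.19 in S (SE, adjusted p = 5.9e-07 in limma) and -3.95 ± 0.19 in U (adjusted p = 7.6e-07). RPL15A was 2.47-fold higher than RPL15B at 12 h and 36.5-fold higher at 6 h, and the change was -4.08 ± 0.21 in S (adjusted p = 5.9e-07) and -3.69 ± 0.21 in U (adjusted p = 1.0e-06). RPL14A had 197 and 208 FPKM in S at 12 h, 151 and 253 in U at 12 h, 3345 and 3964 in S at 6 h, and 3805 and 3456 in U at 6 h. It was below RPL14B in every 12 h library and above it in every 6 h library, and the change of the difference was -2.24 ± 0.14 in S (adjusted p = 1.7e-06) and -2.44 ± 0.14 in U (adjusted p = 1.0e-06).

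RPL26 moved most towards the A gene. RPL26A had 645 and 698 FPKM in S at 12 h, 588 and 871 in U at 12 h, 3317 and 3807 in S at 6 h, and 3424 and 3251 in U at 6 h. RPL26B had 206 and 265 FPKM in S at 12 h, 198 and 321 in U at 12 h, 3449 and 4020 in S at 6 h, and 3770 and 3526 in U at 6 h. The genes were near each other at 6 h, B the higher, and A was 2.85-fold higher than B at 12 h. The change was 1.58 ± 0.10 in S (SE, adjusted p = 1.8e-06 in limma) and 1.63 ± 0.10 in U (adjusted p = 1.4e-06).

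**Figure D5:**
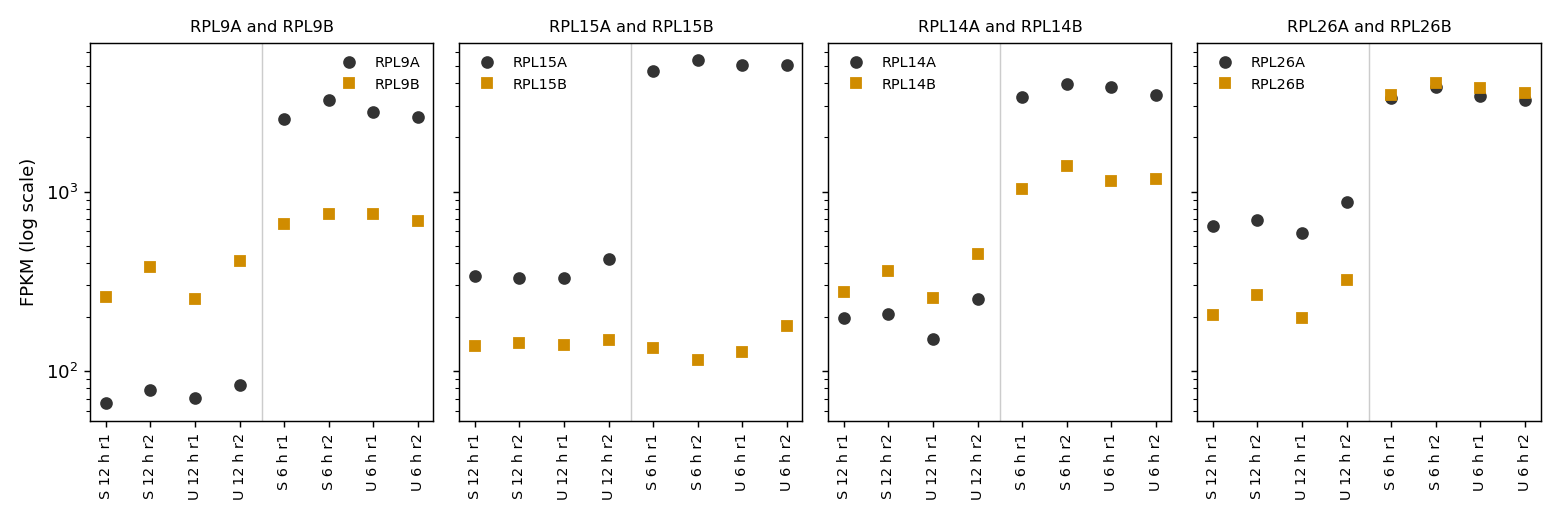
FPKM, on a log axis, of the A gene (circles) and the B gene (squares) of RPL9, RPL15, RPL14 and RPL26 in each library, with the 4 libraries of 12 h left of the line and the 4 of 6 h right of it. RPL15B lies between 116 and 178 FPKM in all 8 libraries, and the order of A and B is turned between the times at RPL9, RPL14 and RPL26.

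Upstream sequences of these 4 pairs, from the RefSeq R64 genome, are shown to set the genes that parted side by side. Each is the stretch from base 420 to base 251 before the start codon, read along the gene, 170 bases long. Capitals mark matches to ACCCNNNCA, the core of the Rap1 site, on either strand. RPL9A is at chrVII:228580-228749 (minus strand), RPL9B at chrXIV:499261-499430 (plus strand), RPL14A at chrXI:431486-431655 (plus strand), RPL14B at chrVIII:103857-104026 (plus strand), RPL15A at chrXII:202841-203010 (minus strand), RPL15B at chrXIII:510599-510768 (minus strand), RPL26A at chrXII:818892-819061 (plus strand) and RPL26B at chrVII:555392-555561 (plus strand).
RPL9A: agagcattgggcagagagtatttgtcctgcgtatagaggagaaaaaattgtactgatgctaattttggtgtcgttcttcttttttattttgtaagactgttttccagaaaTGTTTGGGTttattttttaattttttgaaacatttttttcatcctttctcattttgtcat
RPL9B: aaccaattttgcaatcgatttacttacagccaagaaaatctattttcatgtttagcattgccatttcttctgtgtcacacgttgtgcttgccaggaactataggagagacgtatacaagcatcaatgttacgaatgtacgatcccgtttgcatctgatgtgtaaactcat
RPL14A: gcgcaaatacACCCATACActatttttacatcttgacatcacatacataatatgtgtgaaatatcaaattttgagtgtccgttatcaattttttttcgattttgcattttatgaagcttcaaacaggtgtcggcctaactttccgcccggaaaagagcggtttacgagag
RPL14B: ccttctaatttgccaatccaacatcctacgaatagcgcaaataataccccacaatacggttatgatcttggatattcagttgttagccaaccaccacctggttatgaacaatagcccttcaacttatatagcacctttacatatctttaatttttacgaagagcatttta
RPL15A: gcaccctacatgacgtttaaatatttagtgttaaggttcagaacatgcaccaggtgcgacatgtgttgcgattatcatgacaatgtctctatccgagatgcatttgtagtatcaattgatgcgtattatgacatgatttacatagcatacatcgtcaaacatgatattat
RPL15B: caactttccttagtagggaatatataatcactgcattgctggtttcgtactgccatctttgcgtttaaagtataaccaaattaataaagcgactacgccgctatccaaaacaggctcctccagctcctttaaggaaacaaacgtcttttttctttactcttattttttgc
RPL26A: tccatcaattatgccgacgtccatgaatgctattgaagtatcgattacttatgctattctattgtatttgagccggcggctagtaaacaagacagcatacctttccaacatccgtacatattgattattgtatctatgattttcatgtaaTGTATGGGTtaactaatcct
RPL26B: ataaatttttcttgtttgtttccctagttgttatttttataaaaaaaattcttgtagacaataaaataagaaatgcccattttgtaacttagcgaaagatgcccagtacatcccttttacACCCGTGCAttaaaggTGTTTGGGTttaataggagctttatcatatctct

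In the 500 bases before the start codon, RPL9A, RPL14A and RPL26A had 1 match each and RPL26B had 2, while RPL9B, RPL14B, RPL15A and RPL15B had none. Over the set, 41 of 81 genes had such a match (50.6%), as had 46.4% of the 56 small subunit genes and 13.1% of 6000 coding genes. CTTCC, the core of the Gcr1 site, was found on either strand in 57 of 81 (70.4%), near the 66.1% of all coding genes. The Abf1 core, TCA and ACG with 6 bases of any kind between them, was in 14.8% against 22.7%, AAAATTTT in 16.0% against 12.4%, and GATGAG in 22.2% against 28.2%. The 40 tested genes with the Rap1 core and the 38 without it had median log2 fold changes of -3.21 and -3.23 in S and of -2.97 and -3.04 in U. A match is a run of letters and not a shown binding site.

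RPP2, RPL21 and RPL23 were among the other pairs with changes near 1 on the log2 scale. RPP2A was 2.05-fold below RPP2B at 12 h and level with it at 6 h, at a ratio of 1.02, and the change of A minus B was -1.07 ± 0.11 in S (SE, adjusted p = 6.8e-05 in limma) and -1.06 ± 0.11 in U (adjusted p = 6.9e-05). RPL21A changed places with RPL21B, being 1.22-fold lower at 12 h and 1.61-fold higher at 6 h. RPL21B had 262 and 347 FPKM in S at 12 h, 240 and 395 in U at 12 h, 2571 and 2998 in S at 6 h, and 2793 and 2611 in U at 6 h. RPL23 moved the other way: RPL23A and RPL23B were level at 12 h, at a ratio of 1.02, and RPL23A was at 0.544 of RPL23B at 6 h. RPL23A had 531 and 600 FPKM in S at 12 h, 472 and 679 in U at 12 h, 2887 and 3060 in S at 6 h, and 3058 and 2852 in U at 6 h. RPL23B had 474 and 622 FPKM in S at 12 h, 449 and 712 in U at 12 h, 5303 and 5647 in S at 6 h, and 5416 and 5425 in U at 6 h. RPL23B was the higher gene in every library of 6 h. The order of A and B was turned in every library in 7 pairs, RPL1, RPL8, RPL9, RPL11, RPL14, RPL21 and RPL26, of which RPL8 has a high row on the other strand. RPL1 and RPL11, like RPL4, share long identical stretches between A and B (315, 326 and 422 bases), longer than a read, and their split is less certain. 12 of the 35 pairs share a stretch of at least 100 bases, among them RPL9 (110), RPL15 (116) and RPL14 (147).

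The smallest changes were those of RPL35, RPL12 and RPL36, all under 0.02 on the log2 scale as the mean of the strains. The SE of the change in each strain was 0.13 for RPL35, 0.17 for RPL12 and 0.55 for RPL36. The change of RPL36 is therefore uncertain, and RPL12 and RPL36 have a high row on the other strand. The RPL35 genes differ at 3 of 363 bases, and the longest stretch they share is 302 bases. RPL35A was 1.37-fold higher than RPL35B at both times, and RPL2, RPL42 and RPL4 also changed by under 0.06. Among the tested pairs, those furthest apart over all 8 libraries were RPL36, RPL33, RPL22, RPL15 and RPL7, with mean differences of 6.64, -4.88, -4.86, 3.25 and 2.94. Of these RPL36, RPL33, RPL22 and RPL7 have a high row on the other strand beside the lower gene. RPL36B had 0.88 and 3.31 FPKM in S at 12 h, 1.07 and 7.83 in U at 12 h, 20.8 and 14.5 in S at 6 h, and 23.1 and 21.4 in U at 6 h, against 298 to 2457 FPKM for RPL36A. Its calls with time (adjusted p = 0.0192 in S and 0.0271 in U, limma) did not hold without S 12 h replicate 1, S 6 h replicate 1 or S 6 h replicate 2 in S (adjusted p = 0.107, 0.0695 and 0.0517), nor without U 12 h replicate 1, U 6 h replicate 1 or U 6 h replicate 2 in U (adjusted p = 0.0976, 0.0871 and 0.0901). RPL33A had 6.28 and 13.8 FPKM in S at 12 h, 8.88 and 14.4 in U at 12 h, 82.4 and 129 in S at 6 h, and 98.5 and 93.0 in U at 6 h. RPL7B had 33.4 and 39.1 FPKM in S at 12 h, 28.9 and 45.2 in U at 12 h, 203 and 216 in S at 6 h, and 191 and 193 in U at 6 h. Both had no overlap between the times. RPL7A had 163 and 230 FPKM in S at 12 h, 165 and 284 in U at 12 h, 2065 and 2302 in S at 6 h, and 2148 and 2009 in U at 6 h. RPL22B, whose pre-mRNA is bound by the Rpl22 protein, had 44.5 and 46.6 FPKM in S at 12 h, 51.0 and 57.6 in U at 12 h, 316 and 306 in S at 6 h, and 342 and 248 in U at 6 h.

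Where A and B encode the same or nearly the same protein, their sum gives the transcripts of that protein as a whole. This does not hold for RPP1 and RPP2 (44 and 42 differing residues), and it holds less well for RPL16 and RPL6 (20 and 10). These pairs are among the 27 below. In the 27 tested pairs without a high row on the other strand, the sum of A and B was 4.70-fold (RPL4) to 12.7-fold (RPL2) lower at 12 h, as the ratio of mean FPKM. On the log2 scale this is a range from -3.67 to -2.23. The sum was 8.73-fold lower for RPL9 and 10.4-fold lower for RPL15. A sum is dominated by the higher of its 2 genes.

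The strains were compared to ask whether the form of Gcr1 bears on these genes at either time. No large subunit gene passed at 12 h, at 6 h or in the difference of the time changes: 0 of 78 in each (limma, adjusted p), and 0 of 78 had an unadjusted p under 0.05 in any of the 3. Of all 6339 rows, 0.126% passed at 12 h, 0.0789% at 6 h and 0.0789% in the difference. An unadjusted p under 0.05 was rare over all rows too, at 0.962% at 12 h, 0.883% at 6 h and 0.805% in the difference. The 0 of 78 is thus near the share of all rows and says little about the large subunit. The median log2 fold change, S over U, was -0.12 at 12 h, with 73 of 78 genes below 0, and 0.04 at 6 h, with 67 above 0. Of all rows, 66.2% were below 0 at 12 h, with a median of -0.04, and 48.8% were above 0 at 6 h. Of the 56 small subunit genes, 51 were below 0 at 12 h and 51 above 0 at 6 h. The small shifts of the large subunit genes rest on single libraries. The median at 12 h was -0.44 without U 12 h replicate 1 and 0.23 without U 12 h replicate 2. In U at 12 h replicate 1 was lower than replicate 2 in 78 of 78 genes, by a median of 0.68, and in S by 0.31, in 73 of 78. The 10 diauxic marker genes moved with this, with medians of -1.34 in S and -0.92 in U for replicate 1 minus replicate 2 at 12 h, and their part in the result was not tested. At 12 h 1 gene, RPL22B, had both S libraries below both U libraries, against 14.3% of all rows, and 0 had them above, against 6.36%. At 6 h 4 genes, RPL24B, RPL33B, RPL6B and RPL7B, had both S libraries above and 1, RPL36B, had them below, against 5.77% and 4.89%. These genes are named after their values were seen.

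The largest differences between strains were those of single libraries. RPL35A had 2262 and 4810 FPKM in S at 6 h and 2383 and 2362 in U at 6 h. RPL35B had 1642 and 3819 FPKM in S at 6 h and 1723 and 1601 in U at 6 h. In S 6 h replicate 2 alone both were high, at 2.06 and 2.31 times the mean of the other 3 libraries of 6 h, where the median over the large subunit genes was 1.12. The other genes at the ends of the order were RPL22A and RPL18B above and RPL36B, RPL15B, RPL39 and RPL1A below at 6 h, and their log2 fold changes were under 0.35 in size. RPL1A had 1444 and 1987 FPKM in S at 6 h and 1632 and 1872 in U at 6 h. The log2 fold changes at 6 h were 0.48 ± 0.41 for RPL35A and 0.59 ± 0.39 for RPL35B (SE), and without S 6 h replicate 2 they were -0.07 and -0.02. At 12 h RPL35A had 304 and 427 FPKM in S and 310 and 494 in U. RPL39 had the lowest value at 12 h, -2.45 ± 1.37, which rests on the listed 0 in S 12 h replicate 2: it was -4.83 without S 12 h replicate 1, where it passed, and -0.06 without S 12 h replicate 2.

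The A/B differences were likewise without a call between strains. 0 of 33 pairs passed at 12 h, at 6 h or in the difference of the time changes, as 0 of the 59 pairs of the table did (0%), and 0 large subunit pairs had an unadjusted p under 0.05. The widest difference between S and U in A minus B was that of RPL36, a pair with a high row on the other strand, at 0.44 ± 0.55 at 12 h and 0.39 ± 0.55 at 6 h on the log2 scale (SE). For RPL9 the difference of the time changes was -0.17 ± 0.26 (SE) and for RPL26 -0.05 ± 0.14. Differences that did not pass may still exist between the strains.

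Factors that act on large subunit genes and proteins were listed beside them. Of 14 regulators of ribosomal protein genes, 3 rose and 2 fell in S, and 4 rose and 1 fell in U, shares that were no higher than those of all rows (33.2% and 22.9% in S, 33.5% and 21.7% in U). RAP1 had 30.7 and 32.0 FPKM in S at 12 h, 31.3 and 31.7 in U at 12 h, 50.7 and 67.8 in S at 6 h, and 47.5 and 65.2 in U at 6 h, with log2 fold changes of -0.88 in S and -0.80 in U. CRF1, a corepressor of these genes, rose by 1.96 in S and 1.84 in U, and STB3, a repressor, rose by 0.91 and 0.88. SFP1 had 57.85 and 62.16 FPKM in S and 61.72 and 61.27 in U at 12 h. At 6 h it had 46.75 and 49.06 in S and 46.5 and 46.42 in U. Of the 14 regulators 9 had a log2 fold change above 0 in each strain, with medians of 0.35 in S and 0.38 in U. Of all rows, 57.9% in S and 59.0% in U were above 0. IFH1 fell by 1.13 in S (adjusted p = 0.0403 in limma), and its change of -0.93 in U did not pass (adjusted p = 0.0731). It had 24.0 and 41.4 FPKM in S at 6 h and 22.6 and 37.0 in U at 6 h, against 11.4 to 17.4 at 12 h. IFH1 and RAP1 were thus lower in replicate 1 than in replicate 2 at 6 h, and the part of this in their changes was not tested. FHL1, GCR2 and HMO1 did not pass in either strain. All 5 dedicated chaperones of single large subunit proteins fell in both strains: RRB1 (for Rpl3), SYO1 (for Rpl5 and Rpl11), ACL4 (for Rpl4), SQT1 (for Rpl10) and BCP1 (for Rpl23). Their median was -1.96 in S and -1.92 in U. RRB1 had log2 fold changes of -2.55 in S and -2.52 in U. Of 41 tested factors of assembly and export of the large subunit, 38 fell in S and 36 fell in U, with medians of -1.96 and -1.88. These factors differed between the 6 h libraries too: 39 of 41 were lower in replicate 1, where the heat shock genes were high, than in replicate 2 in each strain, by medians of -0.93 in S and -0.73 in U. The 5 chaperones did the same, at -0.70 in S and -0.43 in U, and the part of this in the falls was not tested. In the same comparisons 10 of 10 diauxic markers rose, and 0 genes of these lists passed between the strains.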

How the data were processed

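The values are FPKM that the authors deposited, 1 per row and library. The submitters' processing notes name TopHat2 2.1.1, Cufflinks, bcl2fastq 1.8.2 and FastQC 0.10.1, and the build sacCer3. The Cufflinks version, its settings, the annotation, the strand setting and the read depth are not stated there. Per the labels' protocols, RNA was extracted with hot phenol, and a stranded mRNA kit and paired-end reads of 100 cycles were used.

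Rows were matched by systematic identifier to the RefSeq R64 annotation, the assembly behind sacCer3: 6048 of 7126 matched. Names were taken from this match, because the table names 11 A genes of the set as their B partner. 7 rows that carry a large subunit name but another identifier were not counted as members. 1 member, with its pair, is part of the counts and medians but is not reported here by itself. Members and gene lists were chosen with earlier results of these data known.

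log2(FPKM + 1) of the 6339 rows averaging 1 FPKM or more was fitted with limma 3.58.1 in R 4.3.3 (lmFit, contrasts.fit, eBayes with trend), all 8 libraries sharing 1 estimate of the spread. Tests were two-sided, adjusted by Benjamini-Hochberg over all rows of a comparison. A/B differences were fitted likewise over 59 pairs. The fits were tested on simulated data. Sequences and motif searches used Python 3.11.15 and Biopython 1.88. Genes given with values by library were, with the exception above, the largest and smallest changes and A/B differences, stalk and single-copy genes, and genes listed at 0. Alternatives were a pseudocount of 0.1, no filter, a minimum mean of 10 FPKM, other scalings, a replicate block, no trend, groups fitted alone and libraries left out.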

Additional observations from a re-analysis of the deposited data

How the results depend on the processing

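The counts of large subunit genes and pairs that passed stayed within 1.5 times under the listed alternatives, apart from 1 gene, RPL39, that passed as lower in S at 12 h when S 12 h replicate 1 was left out. With libraries left out, the genes that fell numbered 74 to 77 in S and 74 to 77 in U, and the pairs 18 to 21 in S and 18 to 22 in U. The median change with time ran from -3.40 to -3.04 in S and from -3.39 to -2.68 in U. The median of S over U ran from -0.44 to 0.23 at 12 h and from -0.08 to 0.18 at 6 h, and that of the difference of the time changes from -0.48 to 0.17. Median-of-ratios scaling and quantile normalization shifted the median of all rows with time by -0.21 and -0.27 in S and by -0.24 and -0.29 in U. They gave large subunit medians of -3.43 and -3.10 in S and of -3.27 and -2.97 in U. Genes that rose and fell then numbered 1696 and 1781 (median-of-ratios) and 1674 and 1858 (quantile) in S, where 2107 and 1450 did without scaling. In U they numbered 1664 and 1768, 1656 and 1865, and 2126 and 1377. The log2 fold change of RPL15B was -0.0402 in S under median-of-ratios scaling and ran from -0.303 to 0.170 in U with libraries left out. That of S over U at 6 h ran from -0.0684 to 1.03 for RPL35A and from -0.0169 to 1.25 for RPL35B. Replicate numbers are not said to pair samples. Their deviations correlated between S and U, at 0.38 at 12 h and 0.64 at 6 h, and with the replicate number as a block 77 genes fell in S and 76 in U, with 19 and 20 pairs, or 24 in each strain with a replicate block within each time. RPL22 in U did not pass with either replicate block (-1.08, adjusted p = 0.0896 and 0.197 in limma). With a pseudocount of 0.1 it did not pass in U either (-3.32, adjusted p = 0.0816 in limma). RPL6 and RPP1 passed in S too with the replicate block within each time (0.23 and 0.21, adjusted p = 0.0266 and 0.00631 in limma). Depth is unknown, so the limit behind a listed 0 is unknown.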
